A study of Mus musculus with 47 samples.

Results

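The genes of the proteasome were followed through single NPY-positive neurons of 2 mouse brain regions. The members were all rows of the count table whose symbol begins with Psm, 1 letter from a to g and a digit, which gave 50 of 22800 symbols. They comprised 14 constitutive subunits of the 20S core particle (7 alpha and 7 beta), 5 tissue-restricted or inducible core subunits, and 17 subunits of the 19S cap (6 ATPases and 11 others). A further 7 were assembly chaperones and 5 were activators or an inhibitor. The remaining 2 rows were Psme2b, a near copy of Psme2, and Psmc3ip, which is no proteasome subunit. Of the 50 members, 41 were read in 10 or more of the 23 cells compared and were used for comparisons, and the other 9 are given by their reads.

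The proteasome is the protease that degrades proteins tagged with ubiquitin. Its 20S core is a barrel of alpha and beta rings with the cutting sites on the inner face of the beta ring, and its 19S cap recognises the tagged protein, removes the ubiquitin and unfolds the chain with a ring of ATPases. In neurons it is known for the turnover of synaptic and misfolded proteins, and the subunits are made in amounts that have to fit one complex.

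Each sample was the cytosol of 1 cell, drawn into a patch pipette after recording and sequenced as one library. The comparison was between 10 NPY-positive cells of layers 1 and 2 of the auditory cortex (AC) and 13 from the stratum lacunosum-moleculare of hippocampal area CA3, with 3 CA1 cells beside them. All came from the NPY-hrGFP strain, called NPY-EGFP in the series' design text, in which a fluorescent protein marks cells that express neuropeptide Y. The mice were untreated, of both sexes and 3 to 8 weeks old, and 8 mice gave all 47 samples of the series. AC cells came from coronal and hippocampal cells from horizontal slices, so region and slice plane cannot be told apart. The labels do not give the mouse of a cell, so each region stands as 1 sample: the SDs below are over cells and no test was made between regions.

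Reads per cell ranged from 1715012 to 6265431 in AC, from 2229519 to 7949918 in CA3 and from 601781 to 3202430 in CA1. The GABAergic markers Gad1, Gad2, Slc32a1 and Npy together took 4794 to 26500 CPM (reads on a gene per 1000000 reads of the cell) in AC, 4376 to 16572 in CA3 and 10806 to 13679 in CA1. Markers of other cells were also read. Of 7 microglia markers 6 had a read, with a summed 0 to 4365 CPM in AC (highest in N42) and 0 to 2161 CPM in CA3 (highest in N27), and Tmem119 was at 0 in both. Astrocyte markers reached 2820 CPM in AC and 372 CPM in CA3 with Aqp4 at 0, and oligodendrocyte markers reached 367 and 955 CPM with Mog at 0. Pyramidal cell markers reached 156 and 297 CPM. Endothelial markers reached 1.17 and 33.7 CPM with Cldn5 and Flt1 at 0. In CA1 these lists reached 250.9 (microglia), 1399 (astrocyte), 354 (oligodendrocyte), 510.2 (pyramidal) and 2.44 CPM (endothelial), the first 4 in N1.

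The proteasome genes took a smaller share of the reads in AC than in CA3 cells. Their summed reads were 4645 CPM in the lowest, 5679 CPM in the median and 8057 CPM in the highest AC cell, against 6991, 10019 and 13129 CPM in CA3. In CA1 the 3 cells had 4708 (N1), 5585 (N2X) and 7011 CPM (N6). Of the 10 AC cells 7 lay below the lowest CA3 cell, and of the 13 CA3 cells 11 lay above the highest AC cell, so the regions overlapped in few cells. The means were 6097 ± 1286 CPM in AC (SD, n = 10 cells), 9989 ± 1839 CPM in CA3 (SD, n = 13 cells) and 5768 ± 1163 CPM in CA1 (SD, n = 3 cells). The CA3 mean was therefore 1.64-fold that of AC and 1.73-fold that of CA1, and the AC to CA3 difference was larger than the SD over cells in either region. Over the summed reads of each region the members had 5949 CPM in AC (exact Poisson 95% interval 5923 to 5975), 9802 in CA3 (9774 to 9829) and 5828 in CA1 (5762 to 5895), and these intervals cover counting error only. Fewer transcripts in the cell and a poorer capture of its cytosol cannot be told apart in such values.

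**Figure D1:**
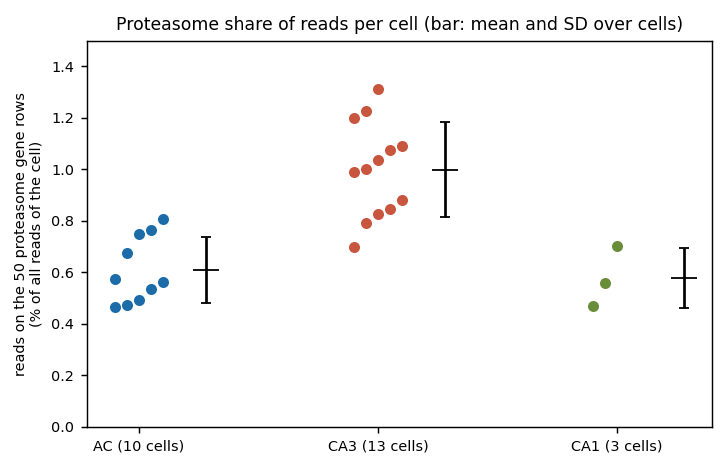
Share of the reads of each cell that fell on the 50 proteasome gene rows, in percent of all reads of the cell (vertical axis, from 0), for AC, CA3 and CA1 cells. Each point is 1 cell and each bar the mean and SD over cells. The AC cells lie between 0.465% and 0.806% and the CA3 cells between 0.699% and 1.31%.

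The lower share in AC held for both the core and the cap. The constitutive 20S subunits had 2269 CPM over the AC cells and 3914 CPM over the CA3 cells, and the 19S subunits 3051 and 4914 CPM. In the 3 CA1 cells the 20S subunits had 1361, 1537 and 2382 CPM and the 19S subunits 2272, 3738 and 3831 CPM, all inside the ranges of the AC cells (1224 to 3685 and 1734 to 3924 CPM). Cell by cell, the reads on 19S subunits were 0.752 to 2.80 times those on 20S subunits in AC (median 1.32), 0.835 to 2.31 times in CA3 (median 1.22) and 1.48, 1.61 and 2.75 times in the 3 CA1 cells. The CA1 ratios lay inside the range of the AC cells, and AC and CA3 overlapped widely. The highest ratio in AC was that of N42, which also had the most microglia marker reads, and their part in it was not tested.

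Fewer of the members were read in an AC cell than in a CA3 cell. The number of the 50 members with at least 1 read was 16 (N42), 28.5 and 42 in the lowest, median and highest AC cell, and 29, 37 and 46 in CA3. The CA1 cells had 30 (N1), 25 (N2X) and 38 (N6). In 5 of the 10 AC cells fewer members were read than in any CA3 cell. On average 30.4 ± 7.9 members were read per AC cell and 37.3 ± 5.1 per CA3 cell (SD over cells). This difference moved with the number of all genes read, which was 4758 ± 1058 in AC and 5860 ± 1240 in CA3. Per 1000 genes read the members numbered 6.39 ± 0.92 in AC, 6.47 ± 0.60 in CA3 and 6.05 ± 0.92 in CA1, values that differed by less than the SD over cells. The difference remained at equal depth: with each cell thinned to 601000 reads, the members read were 29.2 ± 8.3 in AC, 36.6 ± 5.3 in CA3 and 30.7 ± 6.0 in CA1.

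**Figure D2:**
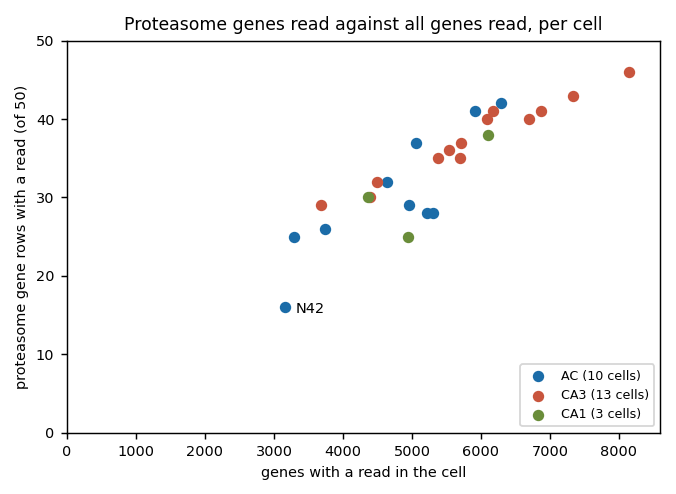
Number of the 50 proteasome gene rows with a read (vertical axis) against the number of all genes with a read (horizontal axis), each point 1 cell, coloured by region. Cells of all 3 regions rise along 1 band, from N42 with 16 members among 3163 genes to a CA3 cell with 46 among 8149.

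Levels of single genes were compared as log2(normalized count + 1), where the count is divided by the size factor of the cell, and a difference is the mean over AC cells minus the mean over CA3 cells. The median difference of the 41 members used was -1.58, and 37 of them were lower and 4 higher in AC, where 67.9% of all genes used were lower and 32.1% higher. Of the 4, Psmb3 stood at 1.62 and Psme4, Psmc2 and Psmd3 at 0.15, 0.04 and 0.03, of which Psmb3 and Psme4 changed sign under 2, Psmc2 under 7 and Psmd3 under 6 of 9 other ways of processing. The median of all genes shifted the same way, to -0.84 over the 5964 genes used, so that relative to it the members lay at -0.75. At least 1 higher in CA3 were 26 of the 41 members (63.4%), against 46.9% of all genes used. At least 1 higher in AC was 1 member (2.44%), Psmb3, against 16.6% of all genes. Set against the shifted median, 16 members (39%) lay at least 1 below it, against 29.9% of all genes, and 1 member at least 1 above it, against 29.3%. For each of the 41 members the ranges of the AC and CA3 cells overlapped, so that no member separated the regions, as for all but 3 (0.0503%) of the genes used.

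Proteasome genes were more abundant and had shorter transcripts than most. The median level was 7.49 over the members used and 4.87 over all genes used, and the median transcript length 1581 and 3122.5 bases. Genes of like level and length, taken from the same of 20 classes made of 5 bins of level and 4 of length, had a median difference of -1.32 where the members lie. Of these genes 56.2% were at least 1 higher in CA3 and 8.71% at least 1 higher in AC. The members lay a median of 0.35 log2 units below the middle of their own class (-0.35), with 25 of 41 below it. This last value rested on single cells: it ranged from -0.73 (without N3X) to -0.15 (without N30), moved by over 1.5 times for 9 of the 23 cells left out, and stayed negative.

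The difference was carried by the reads themselves as well as by cells without a read. On summed CPM, 15 members (36.6%) were at least 2-fold higher in CA3, against 23.1% of all genes used, and 1 (2.44%), Psme4, was at least 2-fold higher in AC, against 19.3%, a call that ended without the AC cell N44, where Psme4 fell from 69.2 to 8.19 CPM against 26.1 CPM in CA3. The median log2 ratio of AC to CA3 was -0.79 for the members and -0.10 for all genes used. Over only the cells with a read of the gene, the members had a median difference of -0.51, while all genes used had a median of 0.17. All CA3 cells had a read of 15 of the members, and all AC cells only of Psma7, which encodes an alpha subunit. Of all genes used, 15% were read in every CA3 cell and 7.63% in every AC cell. A difference towards CA3 larger than the larger SD over cells was found for 2 members (4.88%), Psmb5 and Psmc6, against 4.63% of all genes, a share near that background.

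**Figure D3:**
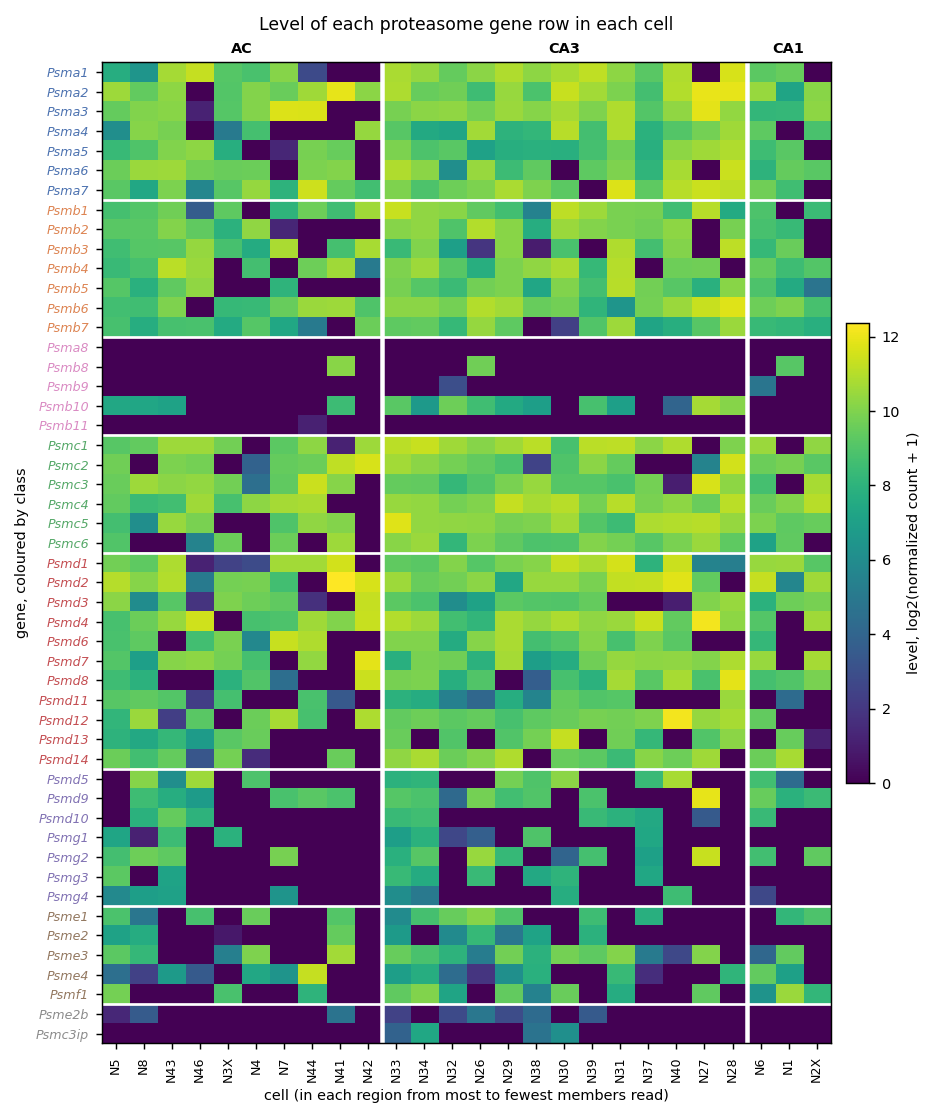
Level of the 50 proteasome gene rows (vertical axis, ordered and coloured by class) in each of 26 cells (horizontal axis, in each region from most to fewest members read), as log2(normalized count + 1) on the colour scale, dark for 0. Constitutive 20S and 19S subunits were read in most cells, with more dark gaps in AC, and the inducible and tissue-restricted rows were mostly at 0.

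The 7 alpha subunits, which form the outer rings and the gate of the core, were all lower in AC, against 67.9% of all genes used. Their median difference was -2.37. Of the 7, 5 were at least 1 higher in CA3, against 46.9% of all genes and 56.2% of genes of like level and length. Psma4 (chr9:54950790-54958030, GRCm38, plus strand) had 0, 17.3 and 297 CPM in the lowest, median and highest AC cell, and 57.8, 121 and 554 CPM in CA3. All 13 CA3 cells but only 6 of the AC cells held a read of it, and the levels differed by -4.10. Psma1 (chr7:114264606-114276118, minus strand) had 0, 99.4 and 594 CPM in AC and 0, 413 and 693 CPM in CA3, a difference of -2.99. Both genes had cells without a read in AC, and the ranges overlapped. Psma6 differed by -0.14, and without the AC cell N7 by 0.83 in the other direction.

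The 7 constitutive beta subunits include the 3 that cut: Psmb5 (chymotrypsin-like), Psmb6 (caspase-like) and Psmb7 (trypsin-like). Their median difference was -1.58, with 4 of 7 at least 1 higher in CA3, a share close to the 56.2% of genes of like level and length. Psmb5 (chr14:54614119-54618022, minus strand) had 0, 30.1 and 299 CPM in the lowest, median and highest AC cell and 47.4, 258 and 536 CPM in CA3, while the CA1 cells had 7.18, 49.9 and 145 CPM. All 13 CA3 cells but only 5 of the AC cells held a read of it, so that the middle of the regions lay far apart although the highest AC cell, N46, was inside the CA3 range. Its level averaged 4.47 ± 4.75 over AC cells and 9.31 ± 1.03 over CA3 cells (SD), a difference of -4.85, and over the cells with a read it was -0.38. Psmb6 (chr11:70525367-70527858, plus strand) had 0, 120 and 384 CPM in AC and 21.7, 332 and 762 CPM in CA3. Its difference of -1.58 fell to -0.64 without N46, the only AC cell with no read of it. Psmb7 differed by -0.67, and without N41, the AC cell with none, by 0.14.

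Psmb3, a beta subunit with no cutting site, went the other way. It had 0, 140 and 532 CPM in the lowest, median and highest AC cell and 0, 117 and 503 CPM in CA3, and 1 AC cell and 2 CA3 cells held no read of it. Its level averaged 8.39 ± 3.12 over AC cells and 6.77 ± 4.38 over CA3 cells (SD), a difference of 1.62. The ranges of the regions were nearly the same, and the summed reads hardly differed, with 174 CPM for AC against 169 CPM for CA3. The difference in level was 1.04 without the CA3 cell N27 and 2.56 without the AC cell N44, neither of which had a read of it, and it turned to -1.95 with all labelled cells. Without the 3 cells with over 1000 CPM on microglia markers (N42, N46 and N27) it was 0.51, and no member was then at least 1 higher in AC, against 19% of all genes.

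The 6 ATPases of the 19S cap, which unfold the substrate, had a median difference of -2.17, with 4 of 6 at least 1 higher in CA3 (46.9% of all genes, 56.2% of like genes). The call of Psmc1 ended without N4, at -0.80 instead of -1.70. Psmc6 (chr14:45329788-45349705, plus strand) showed the largest difference of all members. It had 0, 5.39 and 280 CPM in the lowest, median and highest AC cell and 111, 204 and 493 CPM in CA3, with 0, 41.5 and 171 CPM in the CA1 cells. Of the AC cells 5 held a read of it, and of the CA3 cells all 13. Counting every cell, the level averaged 4.43 ± 4.85 for AC and 9.60 ± 0.68 for CA3 (SD), which differed by -5.17, and by -0.73 over the cells with a read. Psmc5 (chr11:106256154-106263120, plus strand) had 0, 142 and 346 CPM in AC and 90.7, 416 and 1027 CPM in CA3, a difference of -3.85. Psmc6 and Psmc5 were thus read in every CA3 cell and absent from the reads of some AC cells. Psmc2 and Psmc3 lay near 0, at 0.04 and -0.36. Both signs changed with single cells left out: Psmc3 stood at 0.61 without N42, and Psmc2 at -0.62 without N37 and at 0.87 without N8. The exons of Psmc3 overlap those of Slc39a13 on the other strand, and whether strand was used in counting is not clear from the sources.

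The promoters of the members with the largest differences in level in each direction are shown, Psmb5 and Psmc6 towards CA3 and Psmb3 towards AC. They were searched for TGACNNNGC on either strand, the core of the element through which factors such as NRF1 (Nfe2l1) raise proteasome genes. The sequences are from the RefSeq promoter windows on GRCm38.p6, which matched 42 of the 50 members with 45 windows. Each is printed 5′ to 3′ on the strand of the gene as the 214 bases that end 37 bases before the RefSeq start, at chr14:54618032-54618245 (minus strand) for Psmb5, chr14:45329574-45329787 (plus strand) for Psmc6 and chr11:97703184-97703397 (plus strand) for Psmb3, with the match in capitals.
Psmb5: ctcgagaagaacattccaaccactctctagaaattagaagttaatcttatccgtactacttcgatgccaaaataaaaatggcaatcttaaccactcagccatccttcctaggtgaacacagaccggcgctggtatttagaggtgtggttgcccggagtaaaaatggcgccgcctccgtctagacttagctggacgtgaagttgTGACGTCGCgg
Psmc6: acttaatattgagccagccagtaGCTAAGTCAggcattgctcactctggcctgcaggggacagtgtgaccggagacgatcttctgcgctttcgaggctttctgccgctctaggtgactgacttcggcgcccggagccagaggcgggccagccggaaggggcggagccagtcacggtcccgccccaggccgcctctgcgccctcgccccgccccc
Psmb3: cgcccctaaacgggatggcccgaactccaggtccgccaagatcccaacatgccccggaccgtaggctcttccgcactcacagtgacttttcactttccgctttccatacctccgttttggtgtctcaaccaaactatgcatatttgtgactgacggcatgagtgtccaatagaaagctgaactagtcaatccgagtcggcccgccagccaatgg

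The match began 47 bases before the start in Psmb5, where it also holds the letters TGACG of the CREB core, and 227 bases before it, on the other strand, in Psmc6. The whole window of Psmb3 had none. In all, 6 of 45 member windows (13.3%) held the letters, those of Psmb5, Psmb6, Psmc6, Psmd9, Psmd12 and Psme4, against 12.4% of all 32851 windows. The share was near that of all promoters. Among the 6 were Psme4, at 0.15 and without N44 at -0.66, as well as the members furthest below.

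The 11 other subunits of the 19S cap, which bind ubiquitin or hold the cap together, had a median difference of -1.68, with 8 of 11 at least 1 higher in CA3 (46.9% of all genes, 56.2% of like genes). Psmd8 (chr7:29174188-29180701, minus strand) had 0, 36.2 and 432 CPM in the lowest, median and highest AC cell and 0, 168 and 825 CPM in CA3, a difference of -3.41. It was without a read in 4 AC cells and 1 CA3 cell. Psmd14 (chr2:61711694-61800376, plus strand), the enzyme that removes ubiquitin from the substrate, had 0, 52.6 and 297 CPM in AC and 0, 294 and 617 CPM in CA3, a difference of -3.22. The ubiquitin receptor Psmd4 (chr3:95032694-95042614, minus strand) had 0, 199 and 689 CPM in AC and 93.7, 408 and 1265 CPM in CA3. Its difference of -1.34 was -0.39 without N3X, the only AC cell with no read of it. Psmd3 stood at 0.03 (-0.57 without N31 and 0.81 without N41), with 149 CPM for AC against 129 CPM for CA3.

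**Figure D4:**
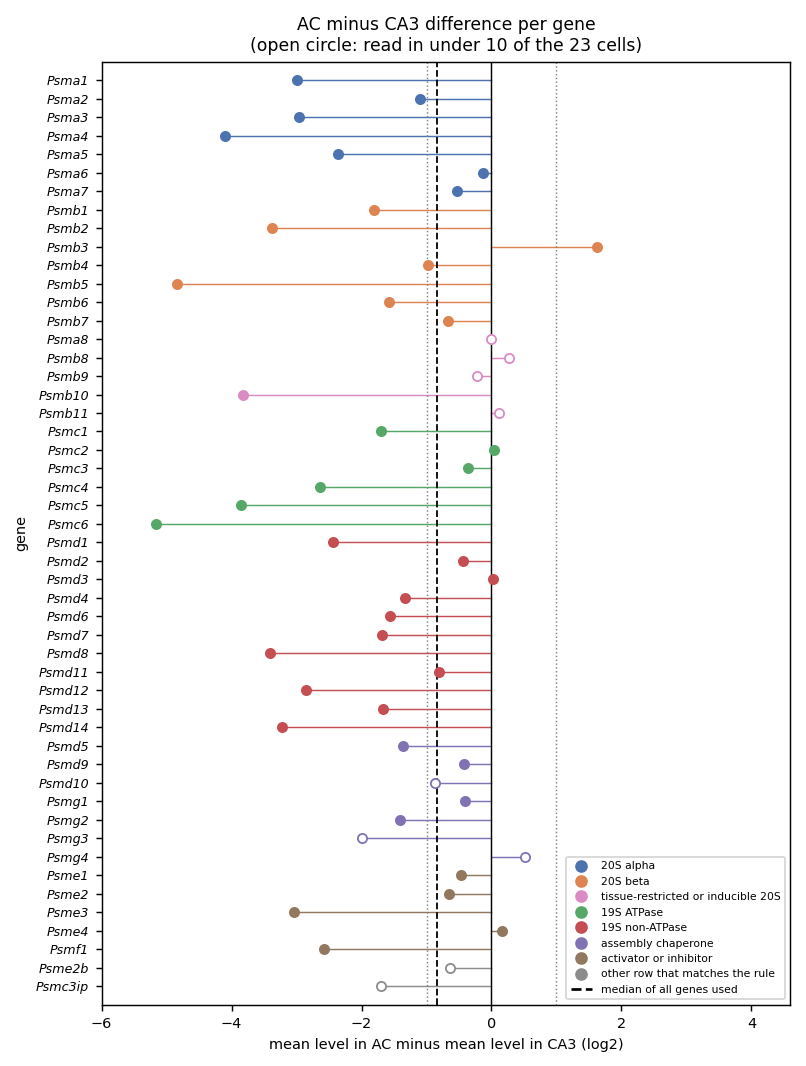
Mean level in AC minus mean level in CA3, in log2 units (horizontal axis), for each of the 50 proteasome gene rows (vertical axis, coloured by class). Filled circles are the 41 members used, open circles those read in under 10 of the 23 cells, dotted lines mark -1 and 1 and the dashed line the median of all genes used at -0.84. Most members lie left of the dashed line, from Psmc6 at -5.17, and only Psmb3 lies beyond 1 on the right.

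The inducible subunits Psmb8, Psmb9 and Psmb10 replace Psmb5, Psmb6 and Psmb7 in the immunoproteasome. Psmb10 (chr8:105935735-105938444, minus strand) was the one commonly read, in 4 AC cells at up to 65.2 CPM and in 11 CA3 cells at up to 461 CPM, with medians of 0 and 54.0 CPM. The summed level was 22.4 CPM in AC and 108 CPM in CA3 (4.80-fold), a difference in mean level of -3.82, and no read fell on it in the 3 CA1 cells, which allows up to 0.596 CPM. The highest CA3 cell was N27, which also had the most microglia marker reads of that region, and the AC cell with the most, N42, had no read of Psmb10. Per kilobase of transcript, Psmb10 made up 21.5% of Psmb7 and Psmb10 together in AC and 36.8% in CA3.

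Psmb8 and Psmb9 were confined to single cells. All reads of Psmb8 were in 1 cell of each region, with 925 reads (212 CPM) in N41 of AC, 615 (276 CPM) in N26 of CA3 and 90 (150 CPM) in N1 of CA1. Through these single cells Psmb8 made up 17.7% of Psmb5 and Psmb8 together in AC, 3.20% in CA3 and 17.6% in CA1 per kilobase. Psmb9 had 8 reads in N32 of CA3 and 10 in N6 of CA1 and was at 0 in AC, which allows up to 0.0881 CPM. Of the tissue-restricted forms, Psmb11 (thymus) had 1 read, in N44 of AC, and Psma8 (testis) had none, which allows up to 0.0881 CPM in AC and 0.0614 CPM in CA3.

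Among the 7 assembly chaperones, which put the rings and the cap together, 4 passed the limit on cells with a read, with a median difference of -0.89 and 2 of them at least 1 higher in CA3, both near the -0.84 and 46.9% of all genes. Each of the 2 calls ended with 1 cell left out, Psmd5 going from -1.37 to -0.87 without N40 and Psmg2 from -1.40 to -0.88 without N27. Their summed level was 315 CPM in AC, 476 CPM in CA3 and 317 CPM in CA1. They were read in differing numbers of cells. Psmg1, a partner in alpha ring assembly, was read in 4 AC cells and 6 CA3 cells, and Psmg3 in 2 and 6. Psmd9 was read in 6 and 8. Psmg4 was read in 4 cells of each region, with 11.5 CPM in AC and 12.9 CPM in CA3. Psmd10 was read in 3 and 6 cells, with 32.6 and 47.2 CPM, and Psmg2 in 4 and 8 cells, with 78.6 and 114 CPM. Psmd5 and Psmd9, chaperones of the ATPase ring, had 97.2 and 59.8 CPM in AC and 104 and 138 CPM in CA3. Single cells carried much of these sums: without the cell with the most reads, AC values were 52.1 CPM for Psmd5 (without N8), 48.4 for Psmg2 (N8), 19.1 for Psmd10 (N43) and 6.87 for Psmg4 (N8), and CA3 values 88.8 CPM for Psmd9 (N27) and 6.28 for Psmg4 (N40).

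The activators and the inhibitor had a median difference of -0.65, with 4 of 5 lower in AC and 2 of 5 at least 1 higher in CA3, where all genes had a median of -0.84, with 67.9% lower in AC and 46.9% at least 1 higher in CA3. Psme3 (chr11:101316213-101323537, plus strand), the nuclear activator, had 0, 6.78 and 298 CPM in the lowest, median and highest AC cell and 0, 154 and 299 CPM in CA3, a difference of -3.04. The inhibitor Psmf1 was found in 3 AC cells and 8 CA3 cells, with 40.7 CPM (25.9 without N3X) and 93.8 CPM and a difference of -2.58. Over only the cells with a read, both differences turned towards AC, to 0.70 for Psme3 and 0.35 for Psmf1. The 5 genes then had a median of 0.16, near the 0.17 of all genes used. Psme1 and Psme2, the interferon-induced activator, differed by -0.47 and -0.65, and were not stable to single cells: Psme1 stood at -1.11 without N4 and close to 0 without N42, and Psme2 at -1.39 without N41 and -0.17 without N26, each being read in at most 5 AC cells and 7 CA3 cells. Psme4, an activator linked to histone degradation, had 69.2 CPM over the AC cells against 26.1 CPM over the CA3 cells, but 89.3% of its AC reads were in N44. Its difference in level was 0.15 and, without N44, -0.66. Psme2b, the near copy of Psme2, had at most 1.72 CPM in either region. Psmc3ip, a protein of meiotic recombination, was read in 4 CA3 cells with 16 to 281 reads each, and in no AC cell, which allows up to 0.0881 CPM.

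Levels between genes were compared per length, as summed CPM per kilobase of transcript. The highest in CA3 were Psmb6 at 403, Psma1 at 363, Psmb2 at 337 and Psmc1 at 319. In AC they were Psmb3 at 227, Psma6 at 219, Psmb6 at 202 and Psmc3 at 158. The 14 constitutive 20S subunits, which stand in equal numbers in the core, spanned 3.04-fold in CA3 (from Psma3 at 133 to Psmb6) and 3.64-fold in AC (from Psmb7 at 62.4 to Psmb3). The 19S subunits spanned 11.4-fold and 5.47-fold, with Psmd11 lowest in both, at 28.9 in AC. Chaperones, activators and the inhibitor lay mostly below the subunits: in AC the chaperones had a median of 22.1, against 105 for the 31 subunits.

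**Figure D5:**
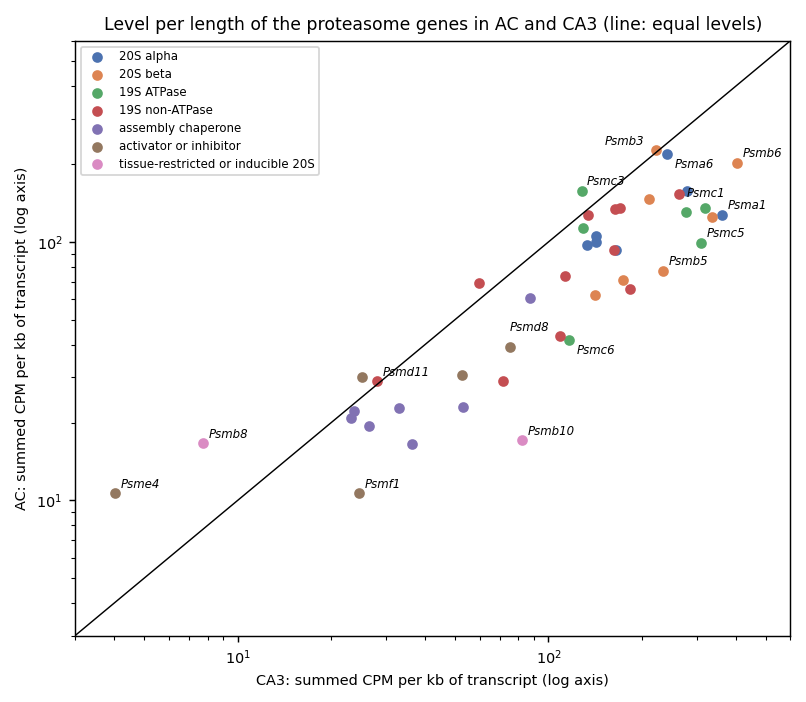
Summed CPM per kilobase of transcript in AC (vertical log axis) against CA3 (horizontal log axis), each point 1 gene coloured by class, with the line of equal levels. Genes under 0.5 CPM per kilobase in a region and the rows Psme2b and Psmc3ip are not drawn. Most points lie below the line, and 7 genes lie on or above it: Psmb3, Psmc3, Psmd3, Psmd11, Psme2, Psme4 and Psmb8.

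Other genes of the ubiquitin and proteasome pathway, from a list of 29 of which 26 were in the table and 24 were used, had a median difference of -1.32 (-0.48 relative to all genes). Of these 16 were lower and 8 higher in AC, with 13 at least 1 higher in CA3 and 4 at least 1 higher in AC. The shares were not far from those of all genes used. Of the latter 67.9% were lower in AC, 46.9% at least 1 higher in CA3 and 16.6% at least 1 higher in AC. Furthest towards CA3 was the shuttle factor Ubqln2 (-4.35), which carries ubiquitinated proteins to the cap. Pomp, the maturation factor of the core, differed by -2.29 and Nfe2l1, which encodes NRF1, by -2.01. Towards AC lay the deglycosylase Ngly1 (2.41), which activates NRF1, the ligase Ube3c (2.11) and the ubiquitin-activating enzyme Uba6 (1.04).

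The cells compared were those that an earlier match had tied to cells drawn in the study, and the difference was larger with other labelled cells. With all labelled cells, 40 of the 45 members then used were at least 1 higher in CA3, against 53.2% of all genes. None was at least 1 higher in AC, against 7.89% of all genes, and the log2 ratio of summed reads was -1.14 instead of -0.72. The 9 further AC cells had 0 to 34 members read and 0 to 5445 CPM on them, and 4 of them had a read of Gad1. The 8 further CA3 cells had 5790 to 11354 CPM and 1 had a read of Gad1. Markers of other cells reached 25599 CPM (astrocyte) and 14899 CPM (pyramidal) in the further AC cells, and 119814 CPM (oligodendrocyte) and 31445 CPM (astrocyte) in the further CA3 cells, and their part in the difference was not tested. Without the 3 cells with the most microglia marker reads the members' median difference was -1.17, or -0.42 relative to all genes, and the log2 ratio of summed reads -0.64, with 24 members at least 1 higher in CA3 against 45% of all genes.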

How the data were processed

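The authors collected cytosol of single neurons, sequenced each as a library, trimmed reads with Trimmomatic and Flexbar and aligned them with STAR to Ensembl GRCm38. They deposited raw read counts per gene symbol, without normalization. The paper names HTSeq as the counter and the submitters' processing notes featureCounts. Counts are not of molecules. From the counts, size factors were computed with scran 1.30.0 (R 4.3.3, pool sizes 10 and 20). A level is log2(normalized count + 1). CPM divide by all reads of a cell or region. Genes read in 10 or more of the 23 AC and CA3 cells were used, and a log2 difference of 1 was the size spoken of. With no mouse given, each region was 1 sample, so no p-value was computed. Exact Poisson 95% intervals and limits of 3 reads cover counting error only. Alternatives used edgeR 4.0.16 (TMM), DESeq2 1.42.0 (poscounts), library size, pseudocounts of 10 and 0.1, other cells, thinned reads and each cell left out. Coordinates and lengths were from GENCODE vM21, with Python 3.11.15, numpy 2.4.6 and pandas 2.3.3. The steps were run on simulated counts with planted changes, to which no cells without a read were added. That simulation cannot show how the steps do on counts with as many values of 0 as these. Members, lists and named genes (the extremes of each class and over all members, catalytic, inducible, chaperone and activator genes, and the pathway's 2 largest each way) were chosen with earlier results of these data known, and Psmd14, Psmb2, Psma3, Psma7, Pomp, Nfe2l1 and Uba6 after their values were seen. Values of some listed genes are not reported here. The exons of 15 of the 50 members overlap another gene. N4X, which nearly equals N4, was averaged with it where all labelled cells were used. The 2 dentate gyrus cells and the NPY-negative cell entered no comparison.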

Additional observations from a re-analysis of the deposited data

Results flagged for a closer look

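Of 35 quantities looked at over the 10 AC cells, mostly levels of named members, 6 had a highest or lowest cell whose gap to the next was over 0.466 of the range, a limit that chance passes in about 1 in 20 groups of normally distributed values. That rate does not hold for levels with many values of 0, where a single cell with or without a read can pass the limit by itself, as in all 6. A single cell with no read of the gene was the lowest, at a level of 0, for Psmb3 (N44), Psmb6 (N46), Psmb7 (N41) and Psmd4 (N3X). Psmb8 stood at 10.17 in N41 and Psmb11 at 1.12 in N44, and both were at 0 in the other AC cells.

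In cells outside the comparisons, proteasome genes were also read. They took 2217 CPM in N11 and 6947 CPM in N12 of the dentate gyrus and 5141 CPM in N16, the NPY-negative CA3 cell. These cells had no read of the GABAergic markers. Oligodendrocyte markers took 164623 CPM in N16, 39072 CPM in N11 and 5.25 CPM in N12. Astrocyte markers took 28411 to 29585 CPM in the dentate gyrus cells.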

How the results depend on the processing

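No paired analysis was possible because the labels number no replicates and name no mouse for a cell. Under the other normalizations, pseudocounts, filters and thinned reads the 7 summary results kept their direction, and moved by less than the SD over cells or, for counts, by under 1.5 times. With all labelled cells, members at least 1 higher in AC numbered 0 and at least 1 higher in CA3 40, and the log2 ratio of summed reads was -1.14. With the cells that pass the study's filter these were 0, 40 and -1.12. Psmb3 reversed, to -1.95 and -2.03. With cells of low microglia marker signal, chosen after seeing the data, 0 members were at least 1 higher in AC, against 19% of all genes. The cause was not tested.

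With each cell left out in turn, the median difference ranged from -1.94 to -1.39, that relative to all genes from -1.08 to -0.51, and that within genes of like level and length from -0.73 to -0.15. Members at least 1 higher in CA3 numbered 24 to 28 and in AC 1. The log2 ratio of summed reads ranged from -0.78 to -0.68 and the difference in members read from -8.20 to -5.31. Levels in single cells rest on counts with many values of 0, and 1 sample a region gives no error between mice.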
